A study of Homo sapiens with 3 samples.

Results

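Replication-dependent histone genes encode the core histones H2A, H2B, H3 and H4 and the linker histone H1 that package DNA as it is copied. They were taken here as the rows of an RNA-seq expression table whose gene symbol starts with HIST1H, HIST2H, HIST3H or HIST4H. The rule found 72 genes among the 23131 rows of the table. They comprised 6 H1, 17 H2A, 20 H2B, 14 H3 and 15 H4 genes, of which 55 lie in the HIST1 cluster on chromosome 6 and 13, 3 and 1 carry the cluster names HIST2, HIST3 and HIST4. The rule used symbols only and no measured value.

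The cells were HCT-116, an established human colon carcinoma line obtained from ATCC. They carry wild-type *APC* and the *CTNNB1* deletion of Ser45, which makes β-catenin resistant to degradation, and every library of the study shares this background. Cells were transfected on consecutive days (2 transfections with Dharmafect 2) with a pool of anti-*APC* siRNA, with a pool of scrambled siRNA, or without siRNA, and were harvested 48 hours after the second transfection. The cells without siRNA are called untransfected in their title and mock-transfected in the treatment description, and are named untransfected here. The table held 1 anti-*APC* siRNA library and 1 untransfected library, while that of the cells given scrambled siRNA is not analysed here, so the effect of losing *APC* and that of receiving any siRNA cannot be told apart. There were no replicates. No test of a difference between the conditions was possible, and all ratios below compare these 2 libraries.

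Most human mRNAs end in a poly(A) tail. The mRNAs of replication-dependent histones instead end just after a conserved stem-loop that is bound by the stem-loop binding protein SLBP, and they accumulate in S phase and are degraded when DNA synthesis stops. A smaller number of histone genes also make longer, polyadenylated transcripts that read past the stem-loop, which is known in differentiated and non-dividing cells. The libraries were prepared as mRNA-seq with the TruSeq RNA kit, which captures RNA through its poly(A) tail, so the values describe the histone transcripts that such a library retains and not the whole histone mRNA of the cells. In bulk RNA, a change in the number of cells that express a gene and a change in RNA per cell cannot be told apart.

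The stem-loop was searched on the sense strand in the 150 bases after the stop codon, as the arm GGNNNT, the loop TNTN and the arm ANNNCC in a row, where the arms of 6 bases had to pair. It was present in 63 of the 65 genes of the set that had a coding transcript in GENCODE 44, and absent from this window in *HIST1H2AG* and *HIST1H2AK*. Over the genome, 69 of 20048 protein-coding genes held it (0.344%), of which 6 were not among the matched genes of the set. Those 6 were *APLP1*, *DLEU7*, *H2AX*, *H3-7*, *H4C14* and *H4C15*, and the last pair are the current symbols of *HIST2H4A* and *HIST2H4B*, whose rows could not be matched. The sequences that follow are those of the most abundant genes of the set in which the window was searched, in order of mean level, read from the GRCh37 genome, 5′ to 3′ on the sense strand, in the DNA alphabet, with the 16 bases of the stem-loop in capitals and 7 flanking bases on each side.
HIST1H2BK: ccccaaaGGCTCTTTTAAGAGCCacttaaa
HIST1H1C: cccaaaaGGCTCTTTTCAGAGCCaccactg
HIST1H2BD: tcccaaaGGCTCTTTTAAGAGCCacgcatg
HIST3H2A: acataaaGGCTCTTTTCAGAGCCacctact
HIST1H2AC: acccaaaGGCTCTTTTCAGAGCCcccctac
HIST1H2BC: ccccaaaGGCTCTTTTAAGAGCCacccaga
HIST2H2AA3 and HIST2H2AA4: ctcaaaaGGCTCTTTTCAGAGCCacccacg
HIST1H2BE: acccaaaGGCTCTTTTCAGAGCCactcacc
HIST1H2BJ: ccctaacGGCTCTTTTAAGAGCCacccatg
HIST1H4K: aacaaaaGGCCCTTTTTAGGGCCcccactt
HIST1H4J: aataaaaGGCCCTTTTCAGGGCCaccctac

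In *HIST1H2BK* the capitals lie at chr6:27114145-27114160 on the minus strand, 36 bases after the stop codon, and in *HIST1H1C* at chr6:26055972-26055987 on the minus strand, 27 bases after it. The 63 stem-loops fell into 8 distinct 16-base sequences. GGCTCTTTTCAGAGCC was shared by 39 genes of classes H1, H2A, H2B and H3. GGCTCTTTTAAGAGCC was found in 9 genes, among them 4 H2B genes with measurable expression, *HIST1H2BK*, *HIST1H2BD*, *HIST1H2BC* and *HIST1H2BJ*. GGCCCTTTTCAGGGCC was found in 9 genes, all of class H4, and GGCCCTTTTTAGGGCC in the H4 genes *HIST1H4I* and *HIST1H4K*. The remaining 4 sequences occurred in 1 gene each. Genes with the same 16 bases had ratios on both sides of 1, for example *HIST1H2BE* at 2.22 and *HIST3H2A* at 0.918, both with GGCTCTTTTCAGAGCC. The counting intervals of these ratios, explained below, were 0.953 to 6.24 and 0.551 to 1.52, and both held 1. Whether the ratio depends on the stem-loop sequence was not tested.

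Expression was given as FPKM, the reads divided by transcript length and by library size. Of the 72 genes, 45 were above 0 in both libraries, 5 in the anti-*APC* siRNA library only, 4 in the untransfected library only and 18 in neither. Most low values of the histone rows were whole reads or simple fractions of a read, as where reads are divided between copies (55 of 59 values of at most 12 reads, of which 30 were whole within 0.03), so the reads behind them could be estimated. In these rows, 1 read was worth 1.096 times as many FPKM in the anti-*APC* siRNA library as in the untransfected library, and the scales of these libraries corresponded to 25.1 M and 27.5 M reads. Of the 54 genes above 0 in at least 1 library, 31 rested on fewer than 10 estimated reads over both libraries, although for 4 of these 31 (*HIST1H2AD*, *HIST1H3D*, *HIST2H2BF* and *HIST1H4I*) the estimate is a minimum. For the 18 genes listed at 0 in both, 0 reads still allowed up to 3 reads per library, which is 0.203 to 0.740 FPKM in the anti-*APC* siRNA library and 0.186 to 0.675 FPKM in the untransfected library, depending on transcript length. The 95% intervals given below come from these read numbers. For single genes and pairs of copies the estimates were rounded to whole reads and the interval is exact for the rounded numbers. For larger sums it is an approximation. The intervals cover counting error only and treat reads as independent molecules. For 6 genes whose rows span a locus longer than the coding sequence, the reads are minima, so intervals that rest on these genes, those of sums included, are upper estimates of the counting error.

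*APC* itself, the target of the siRNA, stood at 3.43 FPKM in the anti-*APC* siRNA library against 9.15 FPKM in the untransfected one (log2 ratio -1.41), in the direction that the label of the library gives. Of 8 colon epithelial markers, 6 had a mean of at least 1 FPKM, and *VIL1* and *CDX1* were under 0.1 FPKM in both libraries. The 6 ratios were all below 1, with a median log2 ratio of -0.35, and *CDH1* was past 1.5-fold at 12.1 against 19.0 FPKM (log2 -0.65). The highest of 4 leukocyte markers reached 0.182 FPKM and the highest of 3 endothelial markers 0.0587 FPKM, while of 4 fibroblast markers *COL1A1* was at 3.08 and 2.85 FPKM and the other three were under 0.1 FPKM. The part of the lower epithelial marker levels in the histone ratios was not tested.

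Summed over all 72 genes, histone transcripts came to 122 FPKM in the anti-*APC* siRNA library and to 73.9 FPKM in the untransfected library, a 1.65-fold ratio with a counting interval of 1.47 to 1.85. The mean of the 2 libraries reached 1 FPKM in 18 genes, all above 0 in both, and these 18 were counted against a 1.5-fold limit. The ratio was at least 1.5-fold higher in 10 of the 18 and at least 1.5-fold lower in 0, while 8 lay between. Among the 10, *HIST2H4A* and *HIST2H4B*, each at 1.75 and 0.564 FPKM, met the level limit only through the anti-*APC* siRNA library. So did *HIST1H2BN* among the 8, at 1.26 and 0.989 FPKM. The 18 include pairs of copies that share reads. With such copies counted once, a choice made after seeing the data, 8 of 15 were at least 1.5-fold higher and 0 lower. Over all 12063 rows with a mean of at least 1 FPKM and values above 0 in both libraries, 2.56% were at least 1.5-fold higher and 6.61% at least 1.5-fold lower with anti-*APC* siRNA. Most of the 18 are weakly expressed, and in the 4945 rows with a mean of 1 to under 10 FPKM these shares were 3.52% and 11.5%. The median log2 ratio of the 18 was 0.80, against -0.05 for all 12063 rows and -0.13 for the 4945 weakly expressed rows. In 14 of the 18 the ratio was above 1. The gene just inside the level limit was *HIST1H2BN* with a mean of 1.12 FPKM, and the gene just outside was *HIST1H4E* with 0.988 FPKM.

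**Figure D1:**
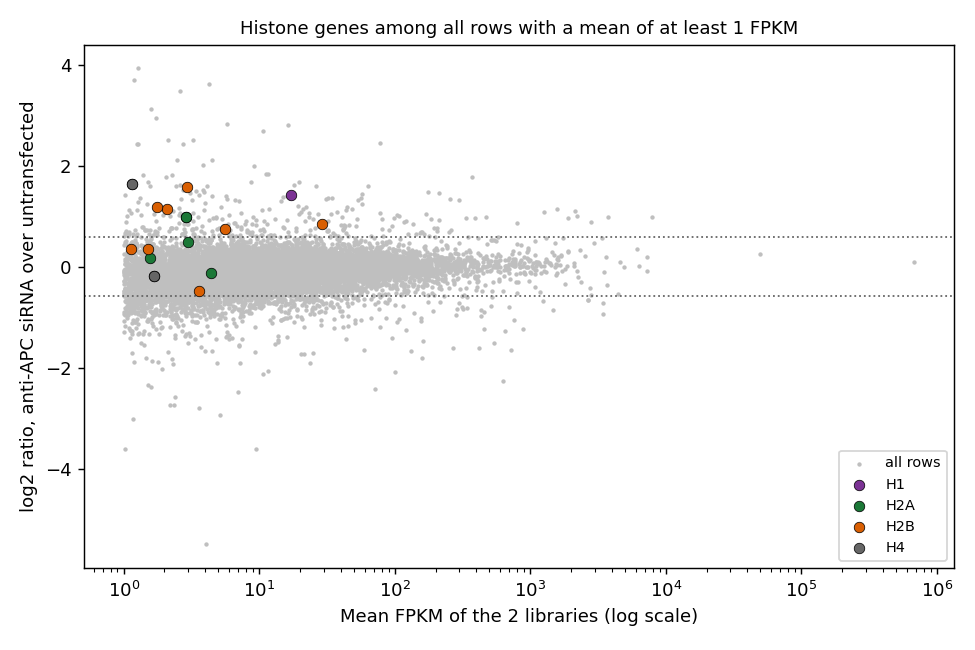
Log2 ratio of FPKM, anti-*APC* siRNA over untransfected, against the mean FPKM of the 2 libraries on a log scale, for all rows with a mean of at least 1 FPKM and values above 0 in both (grey) and for the 18 histone genes (coloured by class). Dotted lines mark 1.5-fold in each direction. Of the 18 histone genes, 10 lie on or above the upper line and 0 below the lower line, and copies with identical values overlap as 1 point.

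The 2 most abundant genes carried much of the sum. *HIST1H2BK*, an H2B gene of the HIST1 cluster at chr6:27114140-27114634 on the minus strand of GRCh37, was at 37.6 FPKM after anti-*APC* siRNA against 21.0 FPKM in untransfected cells, a 1.80-fold ratio (interval 1.39 to 2.32). Its row in the table spans 8566 bases and shares that locus with *HIST1H4I*, so that it rests on at least 167 and 102 reads, a lower estimate from the coding length. *HIST1H1C*, which encodes the linker histone H1.2 at chr6:26055968-26056698 on the minus strand, was at 24.9 FPKM against 9.31 FPKM, a 2.67-fold ratio (2.18 to 3.28) from 331 and 136 reads. It has a single annotated transcript of 731 bases in 1 exon. Together these 2 genes were at 62.6 and 30.3 FPKM, which is 51.3% and 40.9% of the histone sum. The other 70 genes summed to 59.4 and 43.7 FPKM, a 1.36-fold ratio (1.17 to 1.59).

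By class, linker histones had the highest ratio, and 1 gene set it. The 6 H1 genes summed to 25.3 FPKM after anti-*APC* siRNA against 9.81 FPKM in untransfected cells, 2.57-fold (2.12 to 3.13). *HIST1H1C* was the only H1 gene at 1 FPKM or more. *HIST1H1E*, which encodes H1.4, was at 0.273 and 0.498 FPKM from about 4 and 8 reads, so the direction of the class turned without *HIST1H1C* (log2 -0.54 over the other 5 genes). *HIST1H1D* was at 0.0691 FPKM in the anti-*APC* siRNA library from 1 read and listed at 0 in the other. *HIST1H1A*, *HIST1H1B* and the testis gene *HIST1H1T* were at 0 in both.

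The H2B class was the most abundant, with 62.1 FPKM against 37.9 FPKM and a ratio of 1.64 (1.38 to 1.95). H2B forms the dimer with H2A that flanks the H3–H4 core of the nucleosome. Of its 20 genes, 8 were counted and 5 of them were at least 1.5-fold higher. Besides *HIST1H2BK* these were *HIST1H2BC* (4.39 and 1.47 FPKM, 2.99-fold, 1.33 to 6.62), *HIST1H2BJ* (2.44 and 1.08 FPKM, 2.26-fold), *HIST1H2BE* (2.89 and 1.30 FPKM, 2.22-fold) and *HIST1H2BD* (7.01 and 4.15 FPKM, 1.69-fold). The intervals of *HIST1H2BJ* and *HIST1H2BE* both ran from 0.953 to 6.24, since the reads of both round to 17 and 8. These ratios could not be told from 1 at this depth. The table gives *HIST1H2BD* a locus of 13228 bases, so its reads are known only as at least 31 and 20, and the interval these minima give, 0.938 to 3.15, is at least as wide as its counting interval.

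Within the 1.5-fold limits were *HIST1H2BO* at 1.71 and 1.33 FPKM, *HIST1H2BN* at 1.26 and 0.989 FPKM and *HIST2H2BC*, annotated as a transcribed pseudogene, at 3.04 and 4.20 FPKM (0.723-fold, 0.436 to 1.18). *HIST2H2BE*, a long gene with a transcript of 2224 bases, was at 0.646 and 0.858 FPKM from 33 and 48 reads (0.753-fold, 0.469 to 1.20). *HIST2H2BF* was at 0.367 and 0.477 FPKM (0.768-fold, 0.0610 to 6.38 from minimum reads). *HIST2H2BA*, also annotated as a transcribed pseudogene, was at 0.223 and 0.362 FPKM and has no read estimate. All of these H2B genes with a ratio below 1 carry the HIST2 name, but each of their intervals holds 1 and *HIST2H2BA* has none. Below them in level, *HIST1H2BL* and *HIST3H2BB* also had ratios below 1, each from at most 2 reads per library. 5 H2B genes were at 0 in both libraries, and *HIST1H2BG* had 1 read in the untransfected library only.

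**Figure D2:**
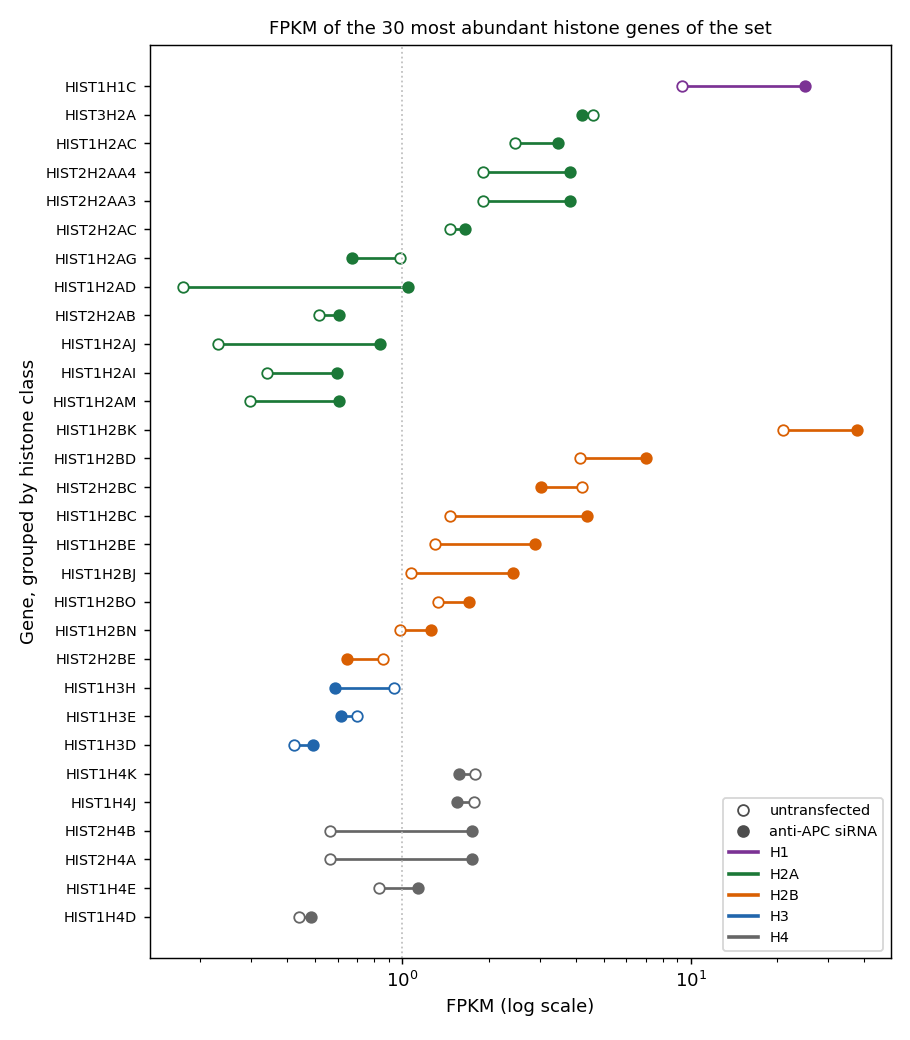
FPKM on a log scale of the 30 histone genes with the highest mean, grouped and coloured by class. Open circles are the untransfected library and filled circles the anti-*APC* siRNA library, joined by a line for each gene, and the dotted line marks 1 FPKM. *HIST1H2BK* and *HIST1H1C* stand apart at 21.0 and 9.31 FPKM in the untransfected library and at 37.6 and 24.9 FPKM with anti-*APC* siRNA.

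The 17 H2A genes summed to 21.9 and 15.8 FPKM, a ratio of 1.38 (1.10 to 1.75). Of the 5 counted, 2 were at least 1.5-fold higher. These 2 were the copies *HIST2H2AA3* and *HIST2H2AA4*, each listed at 3.81 and 1.92 FPKM (1.99-fold). All of the 50-base windows of 1 copy occur in the other, so their reads cannot be assigned to either, and as a pair they were at 7.62 and 3.83 FPKM from 63 and 35 reads (interval 1.29 to 3.07). *HIST3H2A* was nearly level at 4.20 and 4.58 FPKM from 31 and 37 reads (0.918-fold, 0.551 to 1.52). *HIST1H2AC* was at 3.47 and 2.47 FPKM (1.41-fold, 0.803 to 2.58) and *HIST2H2AC* at 1.66 and 1.47 FPKM (1.12-fold).

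The remaining H2A genes were low. *HIST1H2AD* had the widest ratio, 1.05 FPKM against 0.175 FPKM, but its row shares a locus of 2460 bases with *HIST1H3D*, so its reads are known only as a minimum and no counting interval is given. *HIST1H2AJ* and *HIST1H2AI*, which share most of their sequence, summed to 1.44 and 0.572 FPKM (2.52-fold, 0.688 to 11.0). *HIST1H2AM* was at 0.606 and 0.298 FPKM, *HIST2H2AB* at 0.609 and 0.518 FPKM and *HIST1H2AG* at 0.674 and 0.983 FPKM.

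H3 transcripts, which encode the histone that carries many of the best known modifications, were scarce in both libraries. The 14 H3 genes summed to 2.99 FPKM after anti-*APC* siRNA against 3.22 FPKM in untransfected cells, a ratio of 0.928 (0.507 to 1.70), and 0 of them reached a mean of 1 FPKM. The highest were *HIST1H3H* at 0.589 and 0.940 FPKM, from 4 and 7 reads, *HIST1H3E* at 0.614 and 0.700 FPKM, from 4 and 5 reads, and *HIST1H3D* at 0.492 and 0.425 FPKM. Without *HIST1H3H* the class had a log2 ratio of 0.074. The interval of the class holds both 1 and the ratio of 1.65 of all histone transcripts, so a difference between H3 and the set as a whole was not detectable at this depth.

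The 15 H4 genes, which encode the least variable core histone, summed to 9.79 and 7.18 FPKM, a ratio of 1.36 (0.858 to 2.17). The copies *HIST2H4A* and *HIST2H4B* were each listed at 1.75 and 0.564 FPKM (3.11-fold), the highest ratio among the 18 counted genes, and as a pair rested on 17 and 6 reads (interval 1.17 to 9.62). They were counted only through their level with anti-*APC* siRNA, so this rank is not read as a result. *HIST1H4J* and *HIST1H4K*, which share 91.2% and 91.8% of their windows with each other, were at 1.56 and 1.77 FPKM and at 1.58 and 1.80 FPKM (pair 0.877-fold, 0.375 to 2.01). *HIST1H4E* followed at 1.14 and 0.834 FPKM and *HIST1H4D* at 0.484 and 0.442 FPKM, the latter 2 reads in each library. *HIST4H4*, the only gene of the HIST4 cluster, was at 0.381 FPKM with anti-*APC* siRNA from 2 reads and listed at 0 without.

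Intervals were computed for histone rows only, so the share of all rows whose interval lies above 1 is not known here, and the number of histone genes with such an interval is not read as a result. Among the 36 genes detected below a mean of 1 FPKM, the sum was 13.1 and 12.1 FPKM, a ratio of 1.08 (0.796 to 1.48). By cluster, HIST1 genes summed to 98.7 and 55.7 FPKM (1.77-fold, 1.55 to 2.03), HIST2 genes to 18.5 and 13.5 FPKM (1.37-fold, 1.07 to 1.76) and HIST3 genes to 4.40 and 4.80 FPKM (0.918-fold, 0.575 to 1.47).

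**Figure D3:**
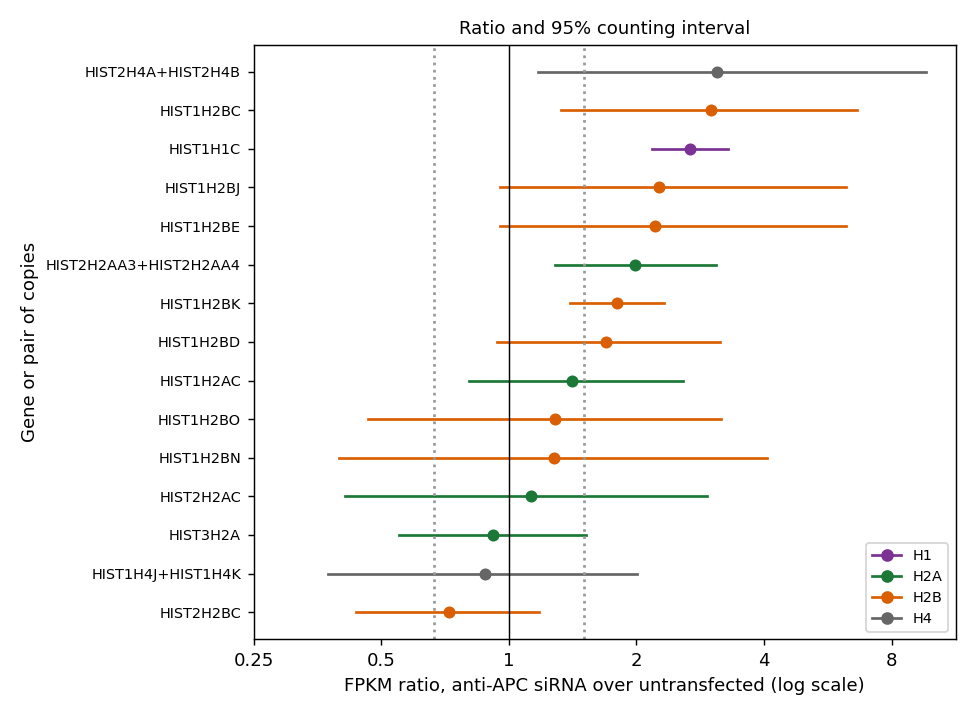
FPKM ratio, anti-*APC* siRNA over untransfected, on a log scale, with its 95% counting interval as a horizontal line, for the counted genes, with pairs of near-identical copies shown as 1 sum. Dotted lines mark 1.5-fold in each direction and the solid line a ratio of 1. The intervals of *HIST1H2BK*, *HIST1H1C*, *HIST1H2BC* and the pairs *HIST2H2AA3* with *HIST2H2AA4* and *HIST2H4A* with *HIST2H4B* lie above 1. The intervals of *HIST1H2BK* and *HIST1H2BD* use minimum reads and are at least as wide as the counting interval.

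Histone genes were then described by what GENCODE 44 annotates for them, since a poly(A)-selected library retains extended transcripts. A gene was called extended where a transcript is longer than 1000 bases or has more than 1 exon. Of the 67 genes matched to the annotation, 17 were extended and 50 were not. In untransfected cells the median level was 0.858 FPKM for the extended genes and 0.204 FPKM for the others. The extended genes were at least 1.5-fold higher in 4 of 7 counted and summed to 28.9 and 20.2 FPKM (1.43-fold, 1.15 to 1.79). The others were at least 1.5-fold higher in 4 of 9 counted and summed to 89.4 and 52.3 FPKM (1.71-fold, 1.49 to 1.96). Both *HIST1H2BK* and *HIST1H1C* fell among the genes without an annotated extended transcript, although the table gives *HIST1H2BK* a locus far longer than its 495-base GENCODE transcript. When genes with a table locus over 1000 bases were also called extended, 21 genes had a summed ratio of 1.61 and the other 46 one of 1.66. For most extended genes the table used only the short locus: that of *HIST1H2BC* spans 438 bases, against an annotated gene at chr6:26086545-26124154 that also contains *HIST1H4C* and *HIST1H1T*.

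**Figure D4:**
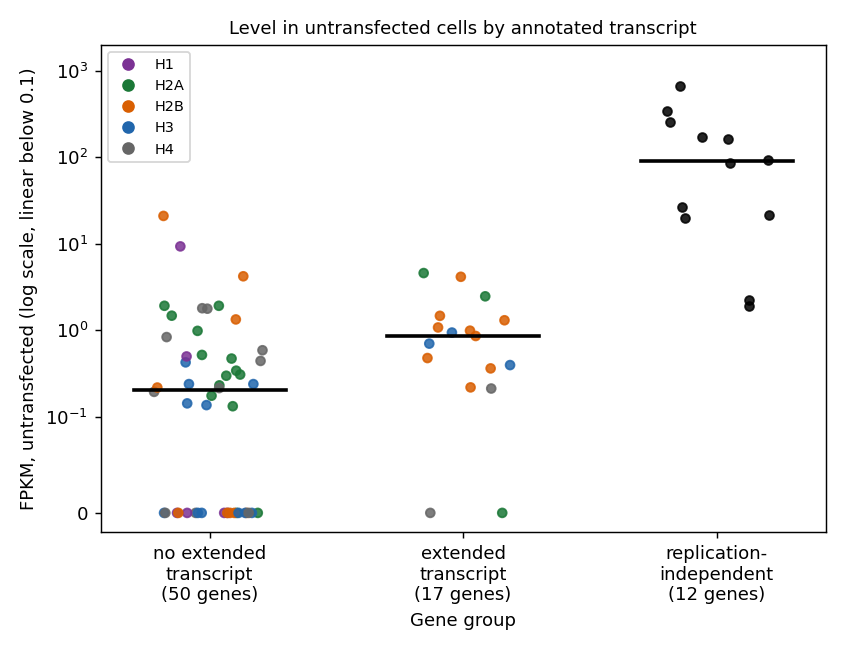
FPKM in untransfected cells, on an axis that is logarithmic above 0.1 and linear below, for the 50 histone genes without and the 17 with an extended transcript in GENCODE 44, coloured by class, and for 12 replication-independent histone genes (black). Each point is a gene, its sideways position is random, and bars are medians, at 0.204, 0.858 and 90.0 FPKM.

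Replication-independent histone genes, whose mRNAs are mostly polyadenylated, offer a reference for the levels. *H2AFX*, now named *H2AX*, is an exception among them in that it also has the histone stem-loop after its stop codon, and it was at 81.5 and 86.1 FPKM. The 12 genes examined had a median of 90.0 FPKM in untransfected cells and summed to 2024 FPKM after anti-*APC* siRNA against 1852 FPKM in untransfected cells. All 12 were within 1.5-fold. Over all 12063 rows, 2.56% were at least 1.5-fold higher and 6.61% lower, so this count is near the share of all rows. The log2 ratios ran from -0.45 for *H2AFJ* to 0.24 for *H2AFZ*, with a median of 0.12. *H2AFZ*, the H2A.Z variant found near promoters, was at 794 and 670 FPKM. The linker variant *H1F0* was at 215 and 258 FPKM, in the opposite direction to *HIST1H1C*. *H3F3A* was at 2.43 and 2.25 FPKM, *H3F3B* at 389 and 338 FPKM and *H3F3C* at 194 and 172 FPKM. How reads were divided among these related genes is uncertain.

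Many H2A and H2B genes are arranged head to head and share the DNA between their starts. The set held 11 such pairs with starts 194 to 289 bases apart, and 8 of them had ratios for both genes. The genes of a pair had ratios on the same side of 1 in 3 pairs and on opposite sides in 5. In each of these 8 pairs the counting interval of at least 1 gene held 1. The side of that gene was therefore not settled at this depth, and agreement within pairs was not tested. *HIST1H2BC* and *HIST1H2AC* were both higher with anti-*APC* siRNA, with log2 ratios of 1.58 and 0.49. *HIST1H2BJ* was at a log2 ratio of 1.18 while its partner *HIST1H2AG* was at -0.55. *HIST2H2BC* was at -0.47 while its partner *HIST2H2AA4* was at 0.99. *HIST1H2BK*, the most abundant gene, faces *HIST1H2AH*, which had 2 reads in the untransfected library and was listed at 0 with anti-*APC* siRNA.

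The promoters of the 2 most abundant genes are shown because they account for most of the summed difference. Each is the stretch of 250 bases before the gene's start in RefSeq on GRCh38.p14, 5′ to 3′, with matches in capitals to CCAAT on either strand (ATTGG where reversed), TATAAA on the sense strand and the octamer ATGCAAAT on either strand (ATTTGCAT where reversed). The letters searched were these only, and none of the matches shown overlaps another.
HIST1H2BK (chr6:27146859-27147108, minus strand): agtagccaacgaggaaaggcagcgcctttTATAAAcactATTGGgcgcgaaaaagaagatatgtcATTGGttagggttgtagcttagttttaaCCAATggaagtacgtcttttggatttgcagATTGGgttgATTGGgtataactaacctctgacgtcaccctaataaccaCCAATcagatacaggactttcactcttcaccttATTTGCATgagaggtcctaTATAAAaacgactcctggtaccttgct
HIST1H1C (chr6:26056471-26056720, minus strand): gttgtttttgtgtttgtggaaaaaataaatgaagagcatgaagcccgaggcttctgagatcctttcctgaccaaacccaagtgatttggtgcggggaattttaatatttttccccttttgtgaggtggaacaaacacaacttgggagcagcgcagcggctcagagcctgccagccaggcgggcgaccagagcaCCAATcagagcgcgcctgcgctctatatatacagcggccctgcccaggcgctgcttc

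A promoter was available for 60 of the 72 genes. CCAAT was present in 52 of the 60 (86.7%), including every H1, H2A, H2B and H3 promoter and 2 of 10 H4 promoters, against 33.0% of all 27305 promoters. TATAAA was present in 37 (61.7%) against 7.17%. The octamer, the element bound by POU2F1 (Oct-1), was present in 24 (40.0%) against 1.66%, with 12 of 16 H2B, 11 of 16 H2A, 1 of 12 H3 and 0 of the H1 and H4 promoters. The H3 promoter with the octamer, that of *HIST1H3D*, is the same window as that of the H2A gene *HIST1H2AD*, so it is counted under both classes. The H2B genes at least 1.5-fold higher held it in 4 of 5 promoters, and the H2A genes at least 1.5-fold higher in 0 of 2. Those 2 are the copies *HIST2H2AA3* and *HIST2H2AA4*, whose windows are the same sequence shifted by 1 base and whose reads cannot be separated. They therefore amount to 1 case, and a difference between the classes was not tested. The *HIST1H2BK* window held all 3 motifs and the *HIST1H1C* window CCAAT alone.

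Genes that make, process and use histone transcripts were set beside the histone genes. Over all 12063 rows with a mean of at least 1 FPKM, 2.56% were at least 1.5-fold higher and 6.61% at least 1.5-fold lower. In lists this short, counts of 0 lie near those shares and are not read as a result about these genes. Of 18 genes for histone 3′ end processing, export and decay, 17 were in the table, and 0 were past 1.5-fold in either direction (median log2 ratio 0.06). *SLBP*, the stem-loop binding protein itself, was at 144 and 129 FPKM (log2 0.16). *RNU7-1*, which encodes the U7 RNA of the processing complex, was the gene not listed in the table. Of 10 genes for histone transcription, 0 were past 1.5-fold (median 0.11), and *NPAT*, the coactivator at histone gene clusters, was at 12.7 and 11.6 FPKM (log2 0.13). Of 13 histone chaperones and acetylation factors, 0 were past 1.5-fold (median 0.01).

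S phase genes were set beside the histones because histone mRNA depends on DNA synthesis. Of 14 such genes, 0 were at least 1.5-fold higher and 1 was at least 1.5-fold lower, with a median log2 ratio of 0.05. These counts are near the shares of all 12063 rows, 2.56% higher and 6.61% lower. The lower gene was *MCM6*, a subunit of the replicative helicase, at 66.9 and 109 FPKM (log2 -0.70). The highest was *RRM2*, the small subunit of ribonucleotide reductase, at 259 and 182 FPKM (log2 0.51). *PCNA*, the sliding clamp of the replication fork, was at 363 and 317 FPKM (log2 0.20).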

How the data were processed

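Total RNA was made into single-read TruSeq mRNA libraries, and the authors used Cufflinks to assign the reads and Cuffdiff to compare the libraries, on build hg19 per the submitters' processing notes. Versions, aligner and annotation are not given in the sources used here, and the labels and methods name different Illumina instruments. The deposited values used are FPKM of the anti-*APC* siRNA and the untransfected library. The deposited natural log ratio, test statistic, p-value, q-value and significance columns hold the authors' own comparison and were not used. Cufflinks shortens the length of each transcript in the FPKM, here by about 203 bases, so 1 read weighs more in short histone transcripts than in long ones.

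Ratios were computed without a pseudocount. Reads were estimated from 5 single-exon histone rows that share the FPKM ratio of 1 read per library. Of 59 other values of at most 12 reads, 30 were whole within 0.03 reads, and 55 were whole or simple fractions, as for reads divided between copies. Estimates exist for 65 genes from the locus length and for 6 as a minimum. Intervals of a ratio are exact conditional binomial intervals for the estimated reads after rounding to whole reads. Those of a sum use the variance of its logarithm. The estimate of the scale and length correction and the interval of a single ratio were tested on simulated data. The interval of a sum was not. Symbols were matched through RefSeq synonyms to GENCODE 44 on GRCh37. The 5 unmatched genes were *HIST1H2BF*, *HIST1H2BG*, *HIST1H4F*, *HIST2H4A* and *HIST2H4B*. Genes named are the 30 of highest mean FPKM, genes of the lists past 1.5-fold, *APC*, *SLBP* and *NPAT*; others were chosen after their values were seen. The members and lists were chosen with earlier results of these data known. Python 3.11.15, numpy 2.4.6, pandas 2.3.3, scipy 1.17.1 and matplotlib 3.10.9 were used.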

Additional observations from a re-analysis of the deposited data

How the results depend on the processing

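The count of 10 histone genes at least 1.5-fold higher became 6 at 2-fold (all rows 0.953% higher and 1.37% lower), 3 of 3 at a mean of at least 5 FPKM, 17 of 45 without a level limit and 6 of 12 without near-identical copies. With copies that share reads counted once it was 8 of 15. The count of 0 at least 1.5-fold lower became 1 at a mean of at least 0.5 FPKM (*HIST1H3H*), 4 without a level limit (*HIST1H3H*, *HIST1H1E*, *HIST2H2BA* and *HIST1H2BL*), 1 with 1 read worth the same in both libraries (*HIST2H2BC*) and 2 of 22 genes with at least 10 reads (*HIST1H3H* and *HIST1H1E*). Here *HIST2H2BA* and *HIST1H2BL* were picked out by their values. The shares of all rows were not computed for the changed limits on level and reads, nor with 1 read worth the same. The counts at those settings are therefore not read as a result about histone genes. The summed log2 ratio of 0.72 became 1.02 at a mean of at least 5 FPKM and 0.44 without the 2 most abundant genes, and it stayed above 0 under all alternatives run. The H1 class turned to -0.54 without *HIST1H1C*, and the H3 class to 0.074 without *HIST1H3H*. Of 134 values of named genes and classes under alternatives, 132 kept their direction within their counting interval and these 2 reversed. For single genes the alternatives were pseudocounts of 0.1 and 1 FPKM, which cannot reverse a ratio, and constant shifts of all log2 ratios. Most of the 132 could therefore hardly have changed, and their number is not read as a sign of stability. As a ratio, the reversed H3 value still lay within the counting interval of its class (0.507 to 1.70). The reversed H1 value lay outside that of its class (2.12 to 3.13). The limit of at least 10 reads, copies counted once and leaving out the 2 most abundant genes were chosen after seeing the data. No paired analysis was possible because each condition had 1 library. Depth limits single genes: 31 of the 54 genes above 0 rested on fewer than 10 estimated reads, of which 4 estimates are minima.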
